A study of Mus musculus with 904 samples.

Results

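The 10 genes described here encode subunits of the NMDA and AMPA receptors, the main fast receptors for glutamate in the mouse brain. They were chosen by name, with earlier results of these data known, out of 32285 genes in the deposited count table: Grin1, Grin2a, Grin2b, Grin2c, Grin2d and Grin3a for the NMDA receptor, and Gria1, Gria2, Gria3 and Gria4 for the AMPA receptor. They were followed across 6 classes of single nuclei, in nuclei with at least 1000 detected genes and at least 10000 reads. The classes rest on CPM, reads of a gene per 1000000 reads, of marker genes: striatal projection nuclei had Rgs9 of at least 20 and Slc17a7 under 20, Sst nuclei had Sst of at least 100, Pvalb nuclei had Pvalb of at least 20 and Sst under 100, excitatory nuclei had Slc17a7 of at least 50, and Aqp4 and Mog nuclei had at least 20 of those genes. A nucleus that met more than 1 rule was left out.

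The series holds 904 nuclei from C57Bl/6J mice that had received an AAV of capsid PHP.eB in young adulthood, and nuclei were sorted for a fluorescent histone 3 to 4 weeks afterwards. Every construct name begins with DLX2.0, so reporter expression selected the nuclei and no uninjected group was analysed here. There were 16 constructs. In 12 of them 1 of 6 elements (BORG, 3xBORG, 3xsmOPT, 3xU7snRNAOPT, U7snRNAOPT or U7snRNAOPT-3'box) preceded SYFP2-H2B in 1 construct and followed it in another. The other 4 were dTomato-H2B, SYFP2-P2A-3XFLAG-H2B, SYFP2-P2A-3XFLAG-H2B-SIRLOIN and SYFP2-10aa-H2Bmod-BC. Each nucleus was 1 library made by SMART-Seq v4, a full-length method, from polyadenylated RNA. The labels name no animal, so the unit of replication below is the construct, and p-values measure only the spread between constructs, which may be technical.

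The labels conflict with the files in 2 ways. All nuclei are labelled primary visual cortex, yet 214 were striatal projection nuclei by the rule. In them the 12 further striatal projection markers summed to 7458 to 15402 CPM per construct, against 567 to 3253 in excitatory nuclei. All 12 had reads in both classes. The series' design text also names striatum. The titles and the vector numbers of the treatment label do not map onto each other either, since the nuclei of 1 titled construct carried 4 to 5 vector numbers. Groups here follow the titles, and results grouped by vector number are given where they differ.

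Of the nuclei, 835 passed the filter, with 30023 to 719419 reads each and a median of 260274. The classes held 214 striatal projection, 134 excitatory, 114 Sst, 92 Pvalb, 37 Mog and 35 Aqp4 nuclei, 117 met no rule and 92 met several. Further markers that the rule does not use were high in their classes. The 7 astrocyte markers summed to 20610 CPM in Aqp4 nuclei and the 6 oligodendrocyte markers to 42671 CPM in Mog nuclei. The 6 medial interneuron markers summed to 1930 CPM in Sst and 2226 CPM in Pvalb nuclei. In striatal projection nuclei the medial interneuron list summed to 663 CPM, with Gad1 at 362, Gad2 at 292 and each of Lhx6, Sox6, Nxph1 and Elfn1 at most 3.83. The 6 caudal interneuron markers summed there to 708 CPM, against 162 CPM in Sst nuclei. In Pvalb nuclei they summed to 292 CPM, with a highest construct of 3098 CPM and Vip at 110 CPM. Of the 6 markers, Cnr1 had 442, Lamp5 147, Adarb2 67.2, Vip 51.5, Prox1 0.559 and Sncg 0.0699 CPM in striatal projection nuclei. The part of both lists in the results was not tested. Of the 8 excitatory markers, all had reads in excitatory nuclei, while 5 were at 0 in striatal projection nuclei. The library names carry the codes S40317, S40325 and S40327, called pools here. The names do not say what a code stands for. The pools were unequal: S40317 held 54 excitatory nuclei and no striatal projection nucleus, so values within pools are given beside part of the results.

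NMDA receptors are assembled from GluN1, encoded by Grin1, with GluN2 subunits encoded by Grin2a to Grin2d. GluN3A, encoded by Grin3a, gives receptors that pass less calcium and are less sensitive to magnesium block. AMPA receptors are tetramers of GluA1 to GluA4, encoded by Gria1 to Gria4. In the adult brain the transcript of Gria2 is edited at a glutamine codon in the pore loop, the Q/R site, and receptors that contain the edited subunit pass little calcium, so the share of Gria2 among AMPA subunit transcripts is of interest for every cell type.

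The Q/R site stretch is shown because it is where the AMPA subunits differ after editing. It was read from the GENCODE M21 transcripts (GRCm38), 5′ to 3′ on the coding strand, with the Q/R codon in capitals.
Gria1: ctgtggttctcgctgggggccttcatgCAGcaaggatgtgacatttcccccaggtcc
Gria2: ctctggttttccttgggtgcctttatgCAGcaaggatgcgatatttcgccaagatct
Gria3: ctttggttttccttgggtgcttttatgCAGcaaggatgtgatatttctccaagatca
Gria4: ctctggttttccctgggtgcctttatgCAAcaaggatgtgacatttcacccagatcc

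The codon lies at chr11:57243094-57243096 in exon 11 of Gria1, at chr3:80706911-80706913 in exon 11 of Gria2, at chrX:41610265-41610267 in exon 11 of Gria3 and at chr9:4464137-4464139 in exon 12 of Gria4. All 4 stretches run across an exon junction. Over these 57 bases Gria3 differed from Gria2 at 5 bases, Gria4 at 7 and Gria1 at 12, and the genome encodes glutamine at the site in all 4 genes. Gene counts do not show whether a read was edited, so editing was not measured here.

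The genes, with their span in GRCm38, were Grin1 (ENSMUSG00000026959, chr2:25291181-25319187), Grin2a (ENSMUSG00000059003, chr16:9567898-9995560), Grin2b (ENSMUSG00000030209, chr6:135713233-136173511), Grin2c (ENSMUSG00000020734, chr11:115249169-115267243) and Grin2d (ENSMUSG00000002771, chr7:45831883-45878378). The remaining genes were Grin3a (ENSMUSG00000039579, chr4:49661611-49845744), Gria1 (ENSMUSG00000020524, chr11:57011387-57330244), Gria2 (ENSMUSG00000033981, chr3:80681450-80802835), Gria3 (ENSMUSG00000001986, chrX:41400854-41678601) and Gria4 (ENSMUSG00000025892, chr9:4417896-4796234). Levels of 1 gene are given as CPM of reads summed over the nuclei of a class within each construct, for constructs with at least 5 nuclei (3 for Aqp4 and Mog); n is the number of constructs. Each sum held 850177 to 12096272 reads. Differences are log2 fold changes with standard errors from edgeR's quasi-likelihood test with the construct as a block, and adjusted p-values follow Benjamini and Hochberg over all genes tested.

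**Figure D1:**
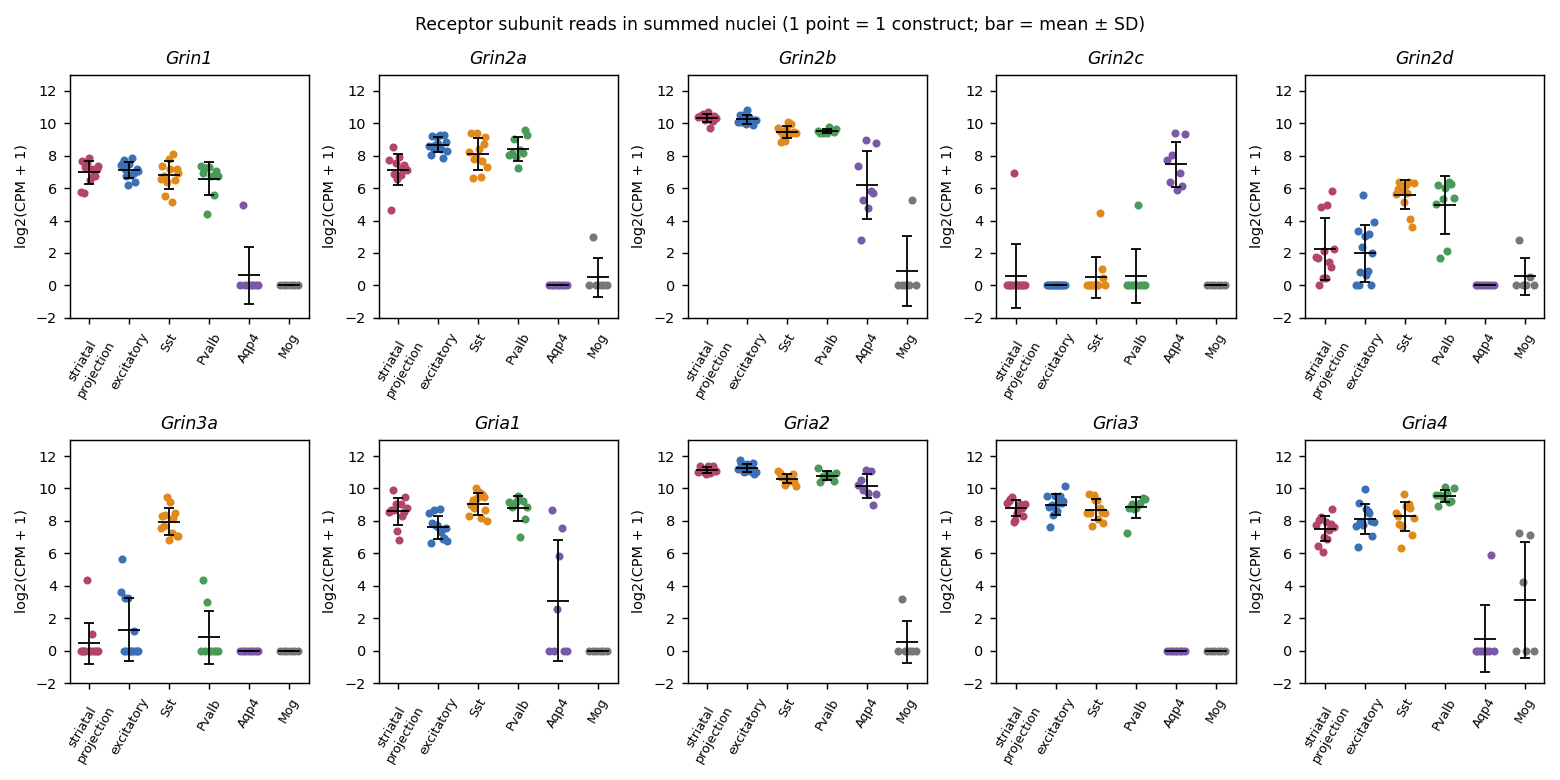
Reads of the 10 subunit genes on a log2(CPM + 1) axis in the 6 classes; each point is the sum of the nuclei of 1 construct and black bars give the mean ± SD over constructs. Grin3a was high in Sst nuclei, Grin2c in Aqp4 nuclei and Gria4 was highest in Pvalb nuclei, while the neuronal means of Grin1 lay between 111 and 144 CPM and those of Gria3 between 453 and 560 CPM.

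Grin1, the subunit that every NMDA receptor needs, had similar levels in the 4 neuronal classes. Its mean was 144 ± 46.9 CPM (SD, n = 13) in excitatory, 136 ± 56.4 (n = 12) in striatal projection, 127 ± 69.1 (n = 12) in Sst and 111 ± 49.4 (n = 9) in Pvalb nuclei. No neighbours in this order differed beyond their spread, and Grin1 was not called in any of the 6 comparisons between neuronal classes.

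Grin2b, the GluN2 subunit with slow decay that is abundant in the forebrain from early development, was higher in striatal projection and excitatory nuclei than in Sst nuclei. In striatal projection nuclei it ran from 819 to 1619 CPM with a median of 1356 (n = 12), and in excitatory nuclei from 957 to 1789 CPM with a median of 1154 (n = 13). In Sst nuclei it ran from 458 to 1090 CPM with a median of 684 (n = 12), and in Pvalb nuclei from 664 to 885 CPM with a median of 717 (n = 9). The first pair of classes lay above the second with some overlap of the ranges. Among the 9 constructs with enough nuclei of both classes, excitatory nuclei were higher than Sst nuclei in 9 of 9, by 0.93 ± 0.21 (log2, SE; edgeR adjusted p = 0.0183). Striatal projection nuclei were higher than Sst nuclei in 9 of 10 constructs, by 0.90 ± 0.19 (edgeR adjusted p = 0.00574). Against Pvalb nuclei the differences had similar sizes, 0.76 ± 0.21 for striatal projection and 0.75 ± 0.22 for excitatory nuclei, but neither passed the threshold (edgeR adjusted p = 0.0745 and 0.0771). Within pools, the log2 difference between excitatory and Sst nuclei was 1.16 in S40317, 0.56 in S40325 and 0.90 in S40327. That between striatal projection and Sst nuclei was 0.80 in S40325 and 0.85 in S40327. The call against Sst nuclei was lost for excitatory nuclei when grouped by vector number (0.72, adjusted p = 0.242), without the construct BORG-SYFP2-H2B-BC (0.83, adjusted p = 0.0633) and without any 1 of the 3 pools (0.95 to 1.23, adjusted p = 0.0663 to 0.417), and for striatal projection nuclei without pool S40327 (1.04, adjusted p = 0.312).

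Grin2a, the GluN2 subunit with faster decay whose expression rises after birth, had its lowest neuronal level in striatal projection nuclei. There it ran from 24.3 to 376 CPM with a median of 149 (n = 12). The excitatory range was 229 to 622 CPM with a median of 401 (n = 13), the Pvalb range 153 to 770 with a median of 291 (n = 9), and the Sst range 99.1 to 684 with a median of 269 (n = 12). The ranges overlapped, and excitatory, Pvalb and Sst nuclei did not differ beyond their spread. Striatal projection nuclei were lower than excitatory nuclei in 8 of 9 constructs, with a log2 difference of -1.26 ± 0.44 that did not pass the threshold (edgeR adjusted p = 0.178).

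Grin2b relative to Grin2a was highest in striatal projection nuclei. Per kilobase of exon, Grin2b exceeded Grin2a by 6.67-fold in striatal projection nuclei, 2.13-fold in excitatory, 1.86-fold in Sst and 1.54-fold in Pvalb nuclei (geometric means over constructs). A difference between classes in this ratio does not depend on gene length. In log2 units it was higher by 1.47 ± 1.58 (SD over constructs) in striatal projection than in excitatory nuclei, in 8 of 9 constructs (exact sign-flip permutation test, two-sided, p = 0.0117, adjusted over 36 ratio tests 0.0422). It was higher than in Sst nuclei by 1.71 ± 1.73, in 9 of 10 constructs (exact permutation p = 0.00586, adjusted 0.0312). Against Pvalb nuclei it was higher by 1.90 ± 1.42 in 6 of 6 constructs, where the smallest exact p that 6 constructs allow is 0.0312 and the adjusted value was 0.0703. Single nuclei were also compared at equal depth. After each was thinned to 30000 reads, Grin2b was detected without Grin2a in 57.9% of striatal projection nuclei, 33.3% of Sst, 31.5% of Pvalb and 20.9% of excitatory nuclei. Unthinned, the shares were 51.4%, 29.8%, 27.2% and 13.4%. Thinning does not level the number of detected genes, whose median was 2560 in striatal projection, 3003 in Sst, 3263 in Pvalb and 3481.5 in excitatory nuclei. Grin1, with similar CPM in these classes, was detected after thinning in 54.2%, 55.3%, 63% and 73.9% of them in that order. The part of this difference in the Grin2a shares was not tested.

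**Figure D2:**
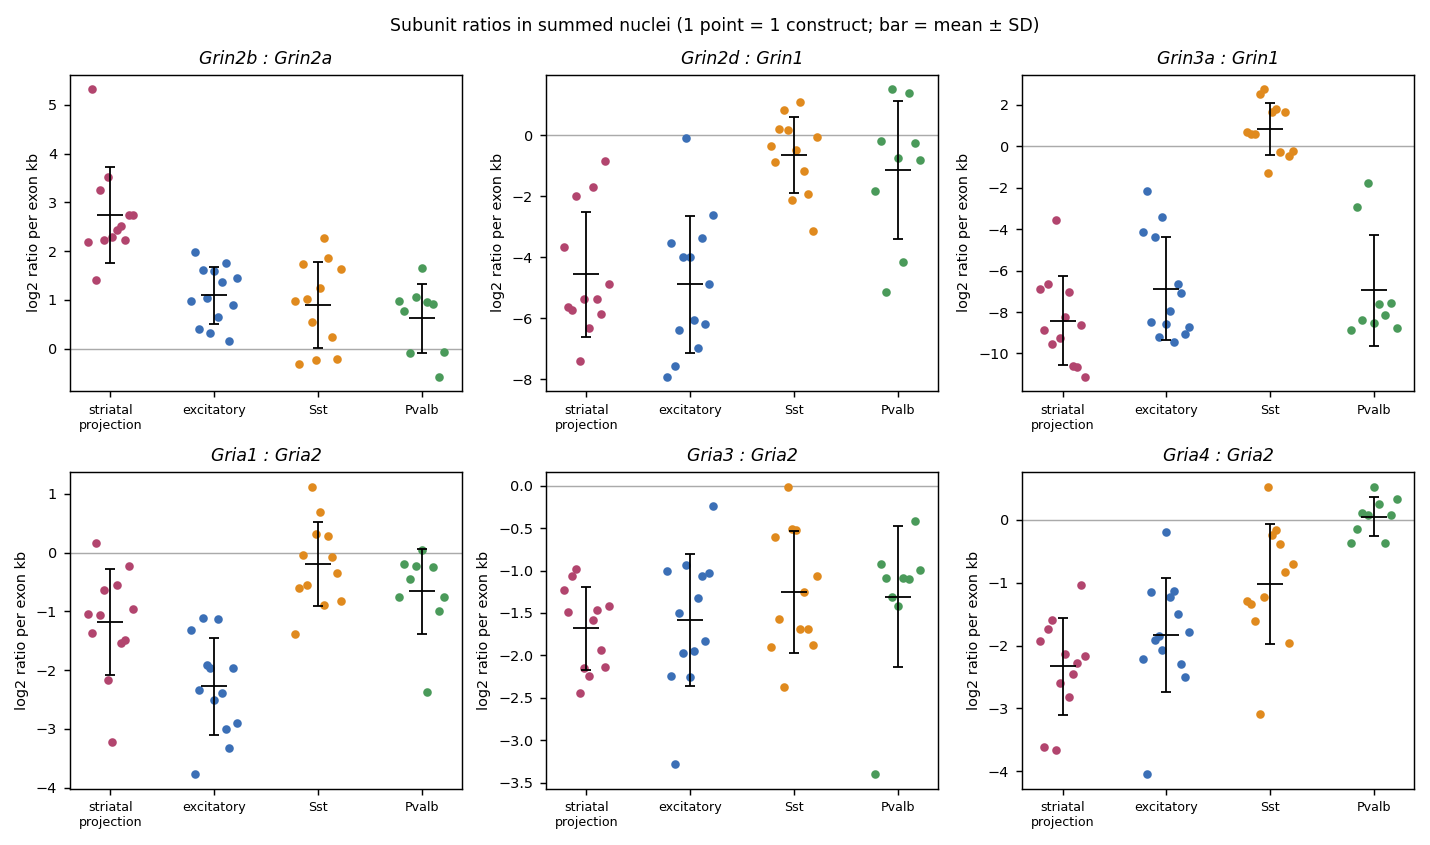
Log2 ratio of 2 subunit genes per kilobase of exon in the 4 neuronal classes, with 1 read added to each count; points are constructs, black bars the mean ± SD and the grey line marks equal levels. Grin2b to Grin2a was highest in striatal projection nuclei, Grin3a to Grin1 stood apart in Sst nuclei, and Gria4 to Gria2 lay near 0 in Pvalb nuclei.

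Grin2d, a GluN2 subunit with very slow decay known from interneurons, had higher mean levels in both interneuron classes, and only its ratio to Grin1, against Sst nuclei, passed a test. It had 54.4 ± 23.9 CPM (SD, n = 12) in Sst and 45.9 ± 30.1 (n = 9) in Pvalb nuclei. In striatal projection nuclei it had 10.6 ± 17.5 CPM (n = 12) and in excitatory nuclei 7.30 ± 12.7 (n = 13). The last 2 spreads exceeded their means: 1 of 13 excitatory constructs had 46.8 CPM and the others at most 14.2. Sst nuclei were higher than excitatory nuclei in 9 of 9 constructs, yet the fitted difference for excitatory against Sst nuclei, -4.14 ± 1.42, was not called (edgeR adjusted p = 0.169). The ratio of Grin2d to Grin1 did pass. It was lower in excitatory than in Sst nuclei in 9 of 9 constructs, with a log2 difference of -4.28 ± 1.66 (SD; exact permutation p = 0.00391, adjusted 0.0312). It was also lower in striatal projection than in Sst nuclei, with -3.59 ± 2.57 in 9 of 10 constructs (exact permutation p = 0.00586, adjusted 0.0312). Against Pvalb nuclei the ratio did not pass: striatal projection nuclei gave -3.81 ± 2.44 (lower in 6 of 6; exact permutation adjusted p = 0.0703) and excitatory nuclei -2.77 ± 3.18 (lower in 5 of 7; exact permutation adjusted p = 0.169). Thinned to 30000 reads, Grin2d was detected in 37% of Pvalb, 30.7% of Sst, 7.01% of striatal projection and 4.48% of excitatory nuclei, and unthinned in 48.9%, 37.7%, 14.5% and 14.2%.

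Grin3a was high in Sst nuclei and near 0 in the other 5 classes. In their 12 constructs it ran from 114 to 696 CPM with a median of 244, and no construct lacked it. It had a median of 0 CPM in every other class and no more than 48.4 CPM in any construct of them; in excitatory nuclei 8 of 13 constructs were at 0, in striatal projection nuclei 10 of 12 and in Pvalb nuclei 7 of 9. The Sst range did not overlap any other. Sst nuclei were higher in all 10 constructs shared with striatal projection nuclei, which held 3 reads against 5212, a ratio of 0.000234 per read sequenced (exact 95% interval 4.83e-05 to 0.000685, counting error only; edgeR adjusted p = 9.63e-08). They were higher in 9 of 9 constructs shared with excitatory nuclei, where excitatory against Sst gave -8.37 ± 1.26 (log2, SE; edgeR adjusted p = 0.000706). They were higher in 8 of 8 shared with Pvalb nuclei, where Pvalb against Sst gave -10.47 ± 1.15 (edgeR adjusted p = 0.000279). Grin3a passed the filter on low counts through the Sst nuclei in these fits, so it had to differ in them. Within each pool Sst nuclei were also higher, with 182 CPM in S40325, 318 in S40327 and 628 in S40317 (7 Sst nuclei) against at most 9.04 CPM in excitatory nuclei. The call against excitatory nuclei was lost without pool S40317 (adjusted p = 0.0612) and without S40327 (adjusted p = 0.241). Not every Sst nucleus had reads: thinned to 30000 reads the share was 57%, against 3.73% of excitatory, 2.17% of Pvalb and 0.935% of striatal projection nuclei, and 64% of Sst nuclei unthinned at a median depth of 253820 reads.

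Among nuclei outside the classes, the 39 that met the rules for both striatal projection and Sst carried Grin3a at 169 CPM and Grin2b at 1027 CPM. Of these, 48.7% had Grin3a reads. Lhx6, a medial interneuron factor, had reads in 46.2% of them and Ppp1r1b, a striatal projection marker, in 38.5%. The part of mixed nuclei in these values was not tested.

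Among the 6 classes, Grin2c, the GluN2 subunit known from cerebellar granule cells and astrocytes, was highest in the Aqp4 nuclei, whose markers are those of astrocytes. It ran from 58.1 to 667 CPM over 8 constructs with a median of 166. In excitatory nuclei it was at 0 in 13 of 13 constructs, and in striatal projection nuclei in 11 of 12, the remaining one holding 120 CPM. In the 6 constructs with both classes, 1048 reads in Aqp4 nuclei stood against 0 in excitatory nuclei, so Grin2c was at least 520-fold higher (floor of 3 counts over the group; edgeR adjusted p = 0.00333). It passed the low-count filter through the Aqp4 nuclei, so it had to differ. Over all nuclei it had 236 CPM in Aqp4 and 1.26 CPM (42 reads) in excitatory nuclei, and in pool S40327 it had 307 against 6.12 CPM. Thinned to 30000 reads, 51.4% of Aqp4 nuclei had Grin2c reads and none of the neuronal classes exceeded 1.09%. Unthinned, these shares were 62.9% and at most 2.63%. Grin2c was also found outside the classes. The 117 nuclei that met no rule held 3699 reads of it, 120 CPM, with reads in 18.8% of them unthinned, against 2491 reads in all Aqp4 nuclei.

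**Figure D3:**
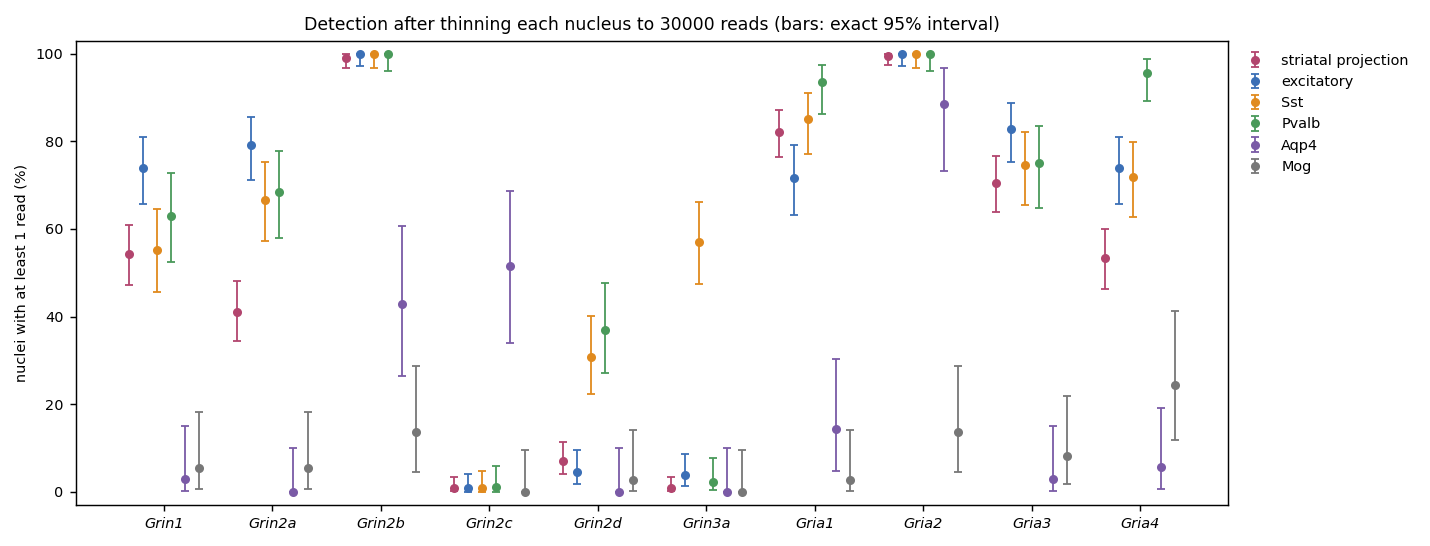
Percent of nuclei with at least 1 read of each gene after thinning every nucleus to 30000 reads, by class, with exact 95% binomial intervals that cover counting error only. Grin3a was detected in 57% of Sst nuclei and Grin2c in 51.4% of Aqp4 nuclei, and Grin2b and Gria2 were found in nearly all neuronal nuclei.

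Gria2, the AMPA subunit whose editing limits calcium entry, was higher in excitatory and striatal projection nuclei than in Sst nuclei. It ran from 1903 to 3442 CPM with a median of 2307 in excitatory nuclei (n = 13), and from 1893 to 2710 with a median of 2184 in striatal projection nuclei (n = 12). It ran from 1334 to 2499 CPM with a median of 1767 in Pvalb nuclei (n = 9), and from 1160 to 2128 with a median of 1533 in Sst nuclei (n = 12). The classes overlapped, with excitatory and striatal projection nuclei toward the upper end. Gria2 was higher in excitatory than in Sst nuclei in 9 of 9 constructs, by 0.75 ± 0.17 (log2, SE; edgeR adjusted p = 0.0159). It was higher in striatal projection than in Sst nuclei in 9 of 10, by 0.67 ± 0.14 (adjusted p = 0.00666). Within pools the excitatory difference was 0.91 in S40317, 0.51 in S40325 and 0.58 in S40327, and the striatal projection difference 0.57 in S40325 and 0.35 in S40327. The excitatory call was lost with class thresholds doubled (adjusted p = 0.0746), grouped by vector number (0.70, adjusted p = 0.181), without dTomato-H2B (adjusted p = 0.0534), without S40325 (adjusted p = 0.103) and without S40327 (adjusted p = 0.673), and the striatal projection call without S40327 (1.05, adjusted p = 0.115).

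Gria1, the subunit tied to activity-dependent insertion of receptors, had its lowest neuronal level in excitatory nuclei. Its range there was 96.8 to 431 CPM with a median of 195 (n = 13). It was 112 to 948 CPM with a median of 406 in striatal projection nuclei (n = 12), 128 to 756 with a median of 502 in Pvalb nuclei (n = 9) and 255 to 1024 with a median of 562 in Sst nuclei (n = 12). The last 3 classes did not differ beyond their spread. Excitatory nuclei were lower than Sst nuclei in 9 of 9 constructs, where the log2 difference was -1.47 ± 0.31 (edgeR adjusted p = 0.00954). The differences within pools were -1.99 in S40317, -1.62 in S40325 and -1.59 in S40327. Leaving out 1 pool ended this call (-1.34, -1.75 and -0.94, adjusted p = 0.17, 0.103 and 0.758 without S40317, S40325 and S40327). Excitatory nuclei were also lower than Pvalb nuclei in 7 of 7 constructs, with -0.92 ± 0.36 that was not called (edgeR adjusted p = 0.26).

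Gria4, a subunit with fast kinetics known from fast-spiking interneurons, was highest in Pvalb nuclei. It ran there from 487 to 1106 CPM with a median of 769 (n = 9). The medians were 332 CPM in Sst nuclei (79.4 to 810, n = 12), 246 in excitatory nuclei (83.4 to 1014, n = 13) and 208 in striatal projection nuclei (67.2 to 430, n = 12). The Pvalb range did not overlap the striatal projection range, and 2 of 13 excitatory and 3 of 12 Sst constructs reached into it. Striatal projection nuclei were lower than Pvalb nuclei in 6 of 6 constructs, with a log2 difference of -2.11 ± 0.37 (edgeR adjusted p = 0.00687), which kept its call under all 16 alternatives that could be fitted. Excitatory nuclei were lower in 7 of 7 constructs, with -1.20 ± 0.29 (edgeR adjusted p = 0.0331). Within pools that difference was -1.15 in S40317, -1.37 in S40325 and -1.5 in S40327. Its call was kept in 8 of 17 alternatives and ended, among others, when grouped by vector number (-0.67, adjusted p = 0.372), without pool S40325 (adjusted p = 0.353), with at least 2000 genes per nucleus (adjusted p = 0.0832) and without any 1 of 5 constructs (adjusted p = 0.0505 to 0.125): BORG-SYFP2-H2B-BC, dTomato-H2B, SYFP2-H2B-3xBORG-BC, SYFP2-H2B-3xU7snRNAOPT-BC and U7snRNAOPT-3'box-SYFP2-H2B-BC. Pvalb nuclei were above Sst nuclei in 8 of 8 constructs, by 1.05 ± 0.27, without passing the threshold (edgeR adjusted p = 0.136). Gria4 reads were found in 95.7% of Pvalb nuclei after thinning to 30000 reads, against 73.9% of excitatory, 71.9% of Sst and 53.3% of striatal projection nuclei, and unthinned in 95.7%, 79.1%, 71.9% and 56.5%.

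Gria3, the X-linked AMPA subunit, was level across neurons. Its mean was 560 ± 234 CPM (SD, n = 13) in excitatory, 486 ± 152 (n = 9) in Pvalb, 469 ± 151 (n = 12) in striatal projection and 453 ± 205 (n = 12) in Sst nuclei. No neighbours in this order differed beyond their spread, and Gria3 was not called in any of the 6 neuronal comparisons. The pools differed in direction against Sst nuclei. For excitatory nuclei the log2 difference was -0.68 in S40317 (7 Sst nuclei), 1.25 in S40325 and -0.011 in S40327. For Pvalb nuclei it was -1.34, 0.97 and -0.30 in the same order. For striatal projection nuclei it was 0.71 in S40325 and -0.44 in S40327. In the remaining comparisons the pools had the same sign.

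Counted per kilobase of exon, Gria2 made up 52.5% ± 8.50 (SD, n = 13) of the 4 genes in excitatory nuclei, 49.8% ± 8.87 (n = 12) in striatal projection, 35.4% ± 9.44 (n = 12) in Sst and 31.7% ± 4.12 (n = 9) in Pvalb nuclei. The second gene was Gria3 in excitatory nuclei at 19.1% ± 8.31, Gria1 in striatal projection nuclei at 23.7% ± 9.18 and in Sst nuclei at 31.1% ± 8.79, while in Pvalb nuclei Gria4 held 33% ± 5.22. These shares use the exon length of each gene, and whether the deposited counts include intronic reads is not given in the sources used here, so they compare classes more safely than genes. Among the GluN2 genes, Grin2b made up 81.3% ± 9.77 in striatal projection, 66.5% ± 9.02 in excitatory, 52.7% ± 8.25 in Sst and 51.9% ± 8.66 in Pvalb nuclei, and Grin2d reached 15.8% ± 8.95 in Sst and 12% ± 7.96 in Pvalb nuclei.

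**Figure D4:**
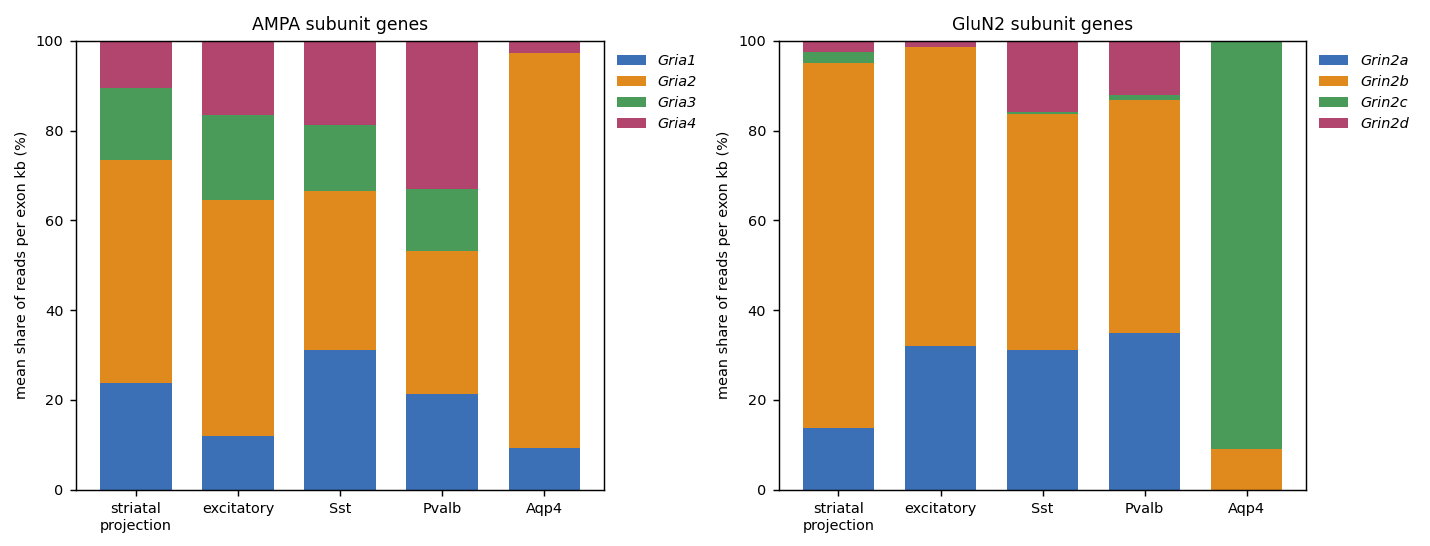
Mean share of each gene among the 4 AMPA genes (left) and the 4 GluN2 genes (right), in reads per kilobase of exon, averaged over constructs in 5 classes; each bar adds to 100%. Gria2 filled 52.5% of the AMPA bar in excitatory nuclei and 31.7% in Pvalb nuclei, and Grin2c filled 90.9% of the GluN2 bar in Aqp4 nuclei.

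Gria1 relative to Gria2 was lower in excitatory than in both interneuron classes, and Gria4 relative to Gria2 was higher in Pvalb than in excitatory and Sst nuclei. The log2 difference of Gria1 to Gria2 between excitatory and Sst nuclei was -2.22 ± 0.70 (SD, 9 of 9 constructs; exact permutation p = 0.00391, adjusted 0.0312). It was -1.54 ± 0.61 between excitatory and Pvalb nuclei (7 of 7; exact permutation p = 0.0156, adjusted 0.0433) and -0.68 ± 0.62 between Pvalb and Sst nuclei (7 of 8; exact permutation p = 0.0156, adjusted 0.0433). For Gria4 to Gria2 the difference was -1.84 ± 0.52 between excitatory and Pvalb nuclei (7 of 7; exact permutation p = 0.0156, adjusted 0.0433), and -1.06 ± 0.87 between excitatory and Sst nuclei (8 of 9; exact permutation p = 0.00781, adjusted 0.0312). In Pvalb nuclei it was higher than in Sst nuclei by 0.86 ± 0.47 in 8 of 8 constructs (exact permutation p = 0.00781, adjusted 0.0312). The tests with striatal projection nuclei did not pass for either ratio. Against excitatory nuclei Gria1 to Gria2 gave 1.12 ± 1.27 (higher in 7 of 9; exact permutation adjusted p = 0.0781), and against Pvalb nuclei Gria4 to Gria2 gave -2.55 ± 0.70 (lower in 6 of 6; exact permutation adjusted p = 0.0703). Gria3 to Gria2 was called in none of its 6 tests. In all, 13 of the 36 ratio tests passed. They include Grin3a to Grin1 against Sst nuclei, with log2 differences of -9.37 for striatal projection, -7.92 for excitatory and -8.67 for Pvalb nuclei. Grin3a was at or near 0 in those 3 classes, so these ratios rest largely on the 1 added read and had to differ. No ratio test passed with class thresholds doubled, when grouped by vector number or without any 1 pool. None passed without 3xsmOPT-SYFP2-H2B-BC, without SYFP2-P2A-3XFLAG-H2B or without dTomato-H2B, and 6 passed without BORG-SYFP2-H2B-BC, without SYFP2-H2B-3xBORG-BC or without U7snRNAOPT-3'box-SYFP2-H2B-BC. Fewer constructs raise the smallest exact permutation p, which is 0.0156 with 7 and 0.0312 with 6, so a lost call alone does not show a smaller difference. The 13 differences kept their sign in every alternative fitted, and the part of this limit in the lost calls was not tested.

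**Figure D5:**
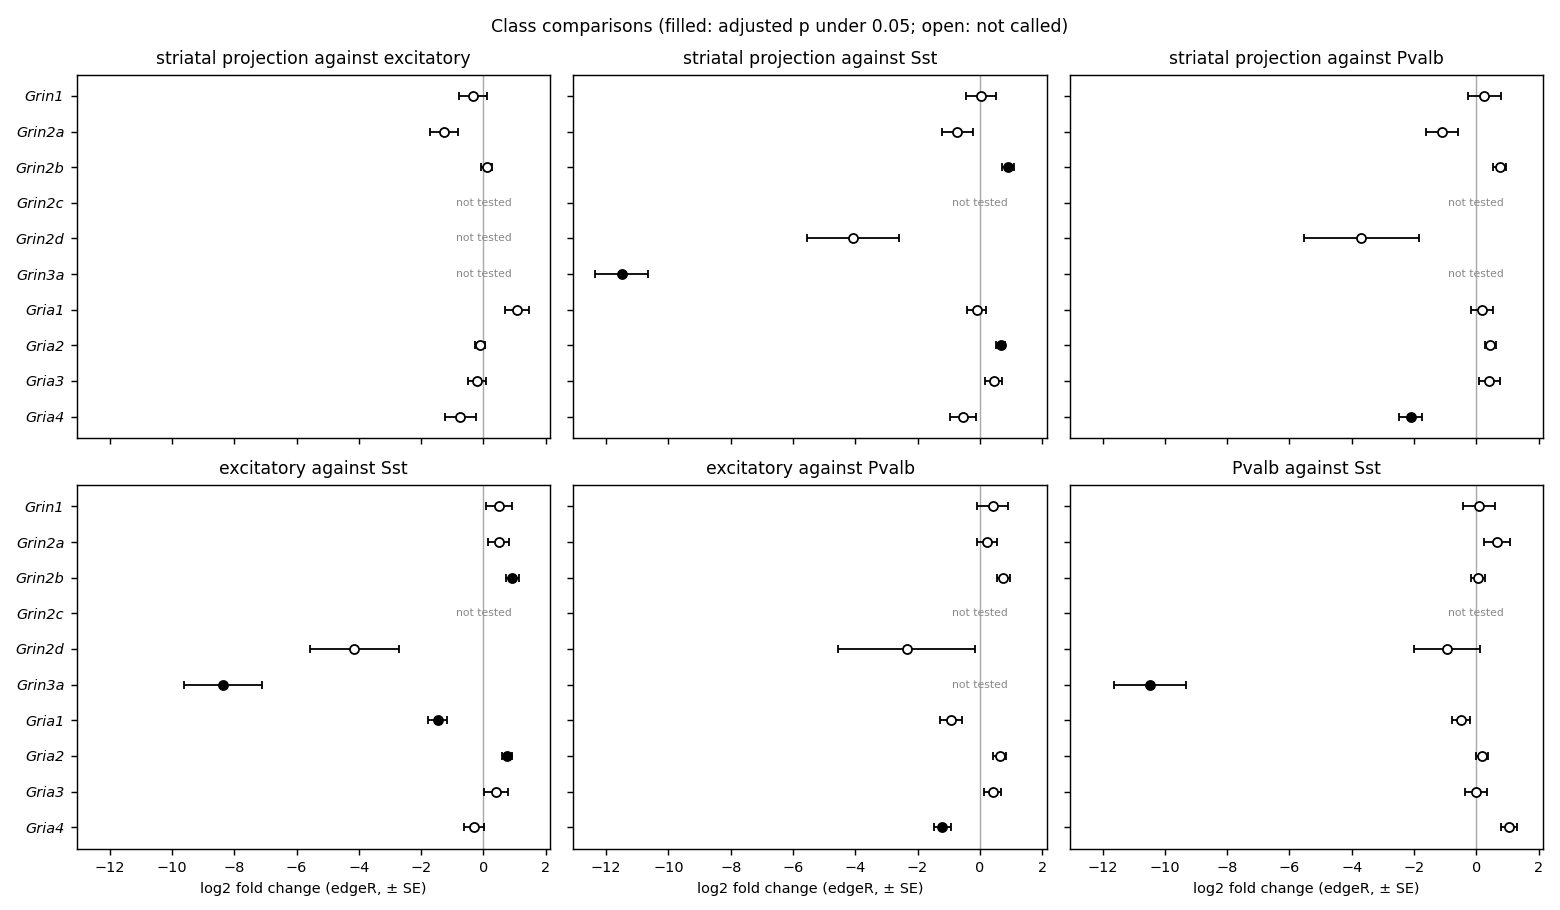
Log2 fold change ± SE of each subunit gene in the 6 comparisons between neuronal classes, from edgeR with the construct as a block; filled points have an adjusted p under 0.05 and genes under the low-count filter are marked as not tested. Grin3a lay far to the left in the 3 comparisons in which it was tested, each against Sst nuclei, and the other called differences lay between -2.11 and 0.93.

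Against all genes, the counts of called subunit genes were as follows. In striatal projection against excitatory nuclei, 7 of the 10 genes passed the low-count filter and edgeR called 0 of them, where 3.26% of all genes tested were called (1.48% higher, 1.78% lower); 2 had an unadjusted p under 0.05, and DESeq2 and limma voom called 2 each. In striatal projection against Sst nuclei 3 of 9 were called, 2 higher and 1 lower (background 5.72%, with 3.6% higher and 2.12% lower). Against Pvalb nuclei 1 of 8 was lower (background 3.34%, with 1.88% higher and 1.46% lower). Excitatory against Sst nuclei gave 4 of 9, 2 in each direction (background 3.12%, with 1.97% higher and 1.15% lower), and excitatory against Pvalb nuclei 1 of 8, lower (background 2.77%, with 1.85% higher and 0.918% lower). Pvalb against Sst nuclei gave 1 of 9, lower (background 0.388%, with 0.171% higher and 0.217% lower). That gene was Grin3a, which was also among the called genes in the other comparisons against Sst nuclei. Grin3a passed the low-count filter through the Sst nuclei and had to differ, so its calls show no excess over the background. The median log2 difference over the tested subunit genes was -0.21 in striatal projection against excitatory nuclei, beside -0.24 over all genes. It was -0.10 in striatal projection against Sst nuclei, beside 0.12.

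Striatal projection nuclei fall into a direct-pathway type with Drd1 and an indirect-pathway type with Drd2. The 104 nuclei with Drd1 and the 58 with Drd2 were compared in 4 constructs, and edgeR called 0 of 7 tested subunit genes, where 0.0434% of all genes were called (0.0217% higher, 0.0217% lower); 0 had an unadjusted p under 0.05 and DESeq2 and limma voom called 0 each. Grin2b had 1300 ± 196 CPM in Drd1 and 1369 ± 404 in Drd2 nuclei (SD, n = 4), and Gria2 had 2349 ± 353 and 2475 ± 291 CPM. The fitted log2 differences, 0.07 ± 0.19 and 0.04 ± 0.16, have the opposite sign to these means, and with RLE scaling they were -0.018 and -0.056, so no direction is given for either gene. For Grin2a the constructs ran from 63.2 to 224 CPM in Drd1 and from 1.21 to 212 CPM in Drd2 nuclei, with a fitted difference of 0.37 ± 1.21 that lay between -0.66 and 1.33 when 1 construct was left out.

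The position of the element in the reporter was compared within each neuronal class, over 4 or 5 elements. No subunit gene was called by edgeR in striatal projection (7 tested), excitatory (7), Sst (9) or Pvalb nuclei (8), where 0% of all genes were called; 0 had an unadjusted p under 0.05, and DESeq2 and limma voom called 0 subunit genes each. Gria4, chosen after its values were seen, was higher with the element after the fusion in 5 of 5 elements in excitatory and 4 of 4 in Pvalb nuclei, with fitted differences of 0.72 ± 0.38 and 0.72 ± 0.50 (edgeR adjusted p = 1 in both).

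In the Aqp4 nuclei, Gria2 took the main share of the AMPA reads. It ran from 501 to 2222 CPM over 8 constructs with a median of 1054 and made up 87.9% ± 15 (SD, n = 8) of AMPA reads per kilobase, from 58.7% to 100% by construct. Gria1 had reads in 4 of 8 constructs and made up 9.31% ± 14.9, up to 41.3%. Gria3 was at 0 in 8 of 8 constructs and Gria4 in 7 of 8. Of the 8 excitatory markers, 5 were at 0 in Aqp4 nuclei and the list summed to 458 CPM (23.3 to 1119 by construct), and its part in these values was not tested. Grin2b had 158 ± 193 CPM with a highest construct of 488, while Grin2a was at 0 in all 8 constructs and in all 35 nuclei, which allows a share of nuclei with reads of up to 10.0% (exact 95% interval). Against excitatory nuclei in 6 constructs, edgeR called 6 of 8 tested subunit genes, where 31.3% of all genes were called (2.13% higher, 29.2% lower) and the median log2 difference over all genes was -4.87: Grin2c was higher, and Grin1, Grin2a, Grin2b, Gria3 and Gria4 were lower. Grin2b gave -5.50 ± 1.14 (edgeR adjusted p = 8.79e-05), Gria3 was at least 1432-fold and Grin2a at least 1147-fold lower (floor of 3 counts over the group). Over all Aqp4 nuclei, those outside the sums included, Gria3 had 90 reads, 8.51 CPM against 596 in all excitatory nuclei, and in pool S40325 it had 45.8 against 751 CPM. The genes that were lower passed the low-count filter mainly through the excitatory nuclei. Gria2 was lower in 6 of 6 constructs, with -1.66 ± 0.69 that was not called (edgeR adjusted p = 0.0521). The calls of Grin1 and Gria4 ended without the construct block (adjusted p = 0.0705 and 0.0568).

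In the construct sums of the Mog nuclei, most subunit genes were at or near 0. Grin1, Gria1 and Gria3 were at 0 in 6 of 6 constructs, and Gria2 was at 0 in 5 of 6 with 7.94 CPM in the other. In these sums Gria4 was higher, with 51.6 ± 73.3 CPM (SD, n = 6) and reads in 3 of 6 constructs. Over all 37 Mog nuclei the order differed, with Gria2 at 123, Gria4 at 65.4, Grin2b at 56.5, Gria3 at 53.5 and Gria1 at 17.1 CPM. Against excitatory nuclei in 5 constructs, 6 of 7 tested genes were lower (background 21.9%, with 1.54% higher and 20.3% lower, median log2 difference over all genes -5.80): Grin1, Grin2a, Grin2b, Gria1, Gria2 and Gria3, with Gria3 at least 1838-fold lower and Gria1 at least 799-fold in the sums. These genes passed the low-count filter through the excitatory nuclei. The call of Grin1 ended without SYFP2-H2B-U7snRNAOPT-3'box-BC (adjusted p = 0.0644). The pools differed: the 30 Mog nuclei of S40327 had Gria2 at 1.59 CPM and Grin2b at 8.55 CPM, and Gria3 and Gria1 at 0. The 7 Mog nuclei of S40325 had 652 CPM of Gria2, 266 of Grin2b, 288 of Gria3 and 91.9 of Gria1, against 2291, 1058, 751 and 151 CPM in the excitatory nuclei of that pool, so the folds of the sums do not describe that pool. Aqp4 nuclei exceeded Mog nuclei in Gria2 in 5 of 5 constructs (957 ± 370 against 1.59 ± 3.55 CPM; edgeR adjusted p = 0.000154, 1 of 2 tested genes called, background 6.67%, with 3.86% higher and 2.81% lower). Gria2 was tested there through the Aqp4 nuclei, since the Mog sums held 16 reads.

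Partners of the receptors were read from 3 lists: 12 AMPA auxiliary subunits, 21 synaptic scaffolds and kinases, and 8 co-agonist, editing and related receptor genes. In striatal projection nuclei 1 of 8 tested auxiliary subunits was higher than in excitatory nuclei and none lower, with a list median of 0.80 beside -0.24 over all genes; it was Cacng4, a transmembrane AMPA regulatory protein, with 45.2 ± 36 against 0.353 ± 1.06 CPM, higher in 9 of 9 constructs (log2 9.23 ± 1.82, edgeR adjusted p = 0.00629). With 8 reads in the excitatory sums, Cacng4 passed the low-count filter through the striatal projection nuclei and had to differ. The shares over all genes were 1.48% higher and 1.78% lower. Of 19 tested scaffolds and kinases 3 were lower and none higher, with a median of -0.22. Dlgap1, a postsynaptic scaffold, led them with 223 ± 127 against 968 ± 414 CPM (lower in 9 of 9 constructs, -2.18 ± 0.31, edgeR adjusted p = 0.000653). None of the 7 tested genes of the third list was called.

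Against Sst nuclei, 1 of 8 tested auxiliary subunits was higher in striatal projection nuclei, and 3 of 19 scaffolds and kinases were higher and 3 lower, where 3.6% of all genes were higher and 2.12% lower. The auxiliary subunit was Gsg1l, which slows recovery of AMPA receptors, with 96.4 ± 57.6 against 1.87 ± 5.34 CPM (10 of 10 constructs, edgeR adjusted p = 0.000728). It had 55 reads in the Sst sums and passed the filter through the striatal projection nuclei, so it had to differ. Camk2b, a subunit of the calcium-dependent kinase of the postsynaptic density, had 574 ± 100 against 147 ± 89.6 CPM (10 of 10, log2 2.22 ± 0.28, edgeR adjusted p = 5.85e-05), and Dlgap1 was again lower (10 of 10, -2.19 ± 0.27, edgeR adjusted p = 3.67e-05). In the third list Grid1, a delta glutamate receptor, was the 1 of 7 called, at 44.3 ± 34.8 against 8.20 ± 25.4 CPM (10 of 10, log2 7.53 ± 1.86, edgeR adjusted p = 0.0186). Its spread in Sst nuclei exceeded its mean, with 239 reads in the Sst sums against 2014 in the striatal projection sums. The fitted log2 difference is far larger than these means and reads give, so it is not read as a size. Grid1 passed the low-count filter mainly through the striatal projection nuclei. Against Pvalb nuclei Gsg1l and Camk2b were again higher and Dlgap1 lower, each in 6 of 6 constructs (edgeR adjusted p = 0.0365, 0.0126 and 0.00171), with 1 of 7 auxiliary subunits higher and 2 of 19 scaffolds and kinases called in each direction, where 1.88% of all genes were higher and 1.46% lower. There too Gsg1l, with 68 reads in the Pvalb sums, passed the filter through the striatal projection nuclei.

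In excitatory nuclei, 2 of 20 tested scaffolds and kinases were higher than in Sst nuclei and 3 of 20 higher than in Pvalb nuclei (1.97% and 1.85% of all genes were higher), with none lower and no called gene in the other lists. Camk2a, the alpha subunit of that kinase, had 255 ± 69.3 CPM against 27.6 ± 20.4 in Sst nuclei (9 of 9 constructs, log2 3.78 ± 0.72, edgeR adjusted p = 0.00503). Homer1, a scaffold that links metabotropic receptors, had 328 ± 143 CPM against 43.9 ± 43.1 in Pvalb nuclei (7 of 7, 3.68 ± 0.60, edgeR adjusted p = 0.0024). Pvalb against Sst nuclei and Drd1 against Drd2 nuclei gave no called gene in any of the 3 lists. In Aqp4 and Mog nuclei no list gene was higher than in excitatory nuclei. The lower ones were 4 of 6, 10 of 16 and 4 of 6 tested in Aqp4 nuclei, led by Cacng3, Homer1 and Neto1, each with 0 reads and at least 463-fold, 1478-fold and 235-fold lower. Over all genes 29.2% were lower there, with a median log2 difference of -4.87. In Mog nuclei they were 4 of 5, 11 of 17 and 3 of 6, beside 20.3% of all genes and a median of -5.80, led by Shisa7, Nsf and Adar, at least 375-fold, 2119-fold and 71-fold lower. These 6 genes had 0 reads in the glial sums and passed the filter through the excitatory nuclei. Dlgap1 was the 1 list gene called between Aqp4 and Mog nuclei, with 662 ± 226 against 40.8 ± 91.2 CPM (log2 11.58 ± 3.24, edgeR adjusted p = 0.00847). Its spread in Mog nuclei exceeded its mean, with 389 reads in the Mog sums against 3497 in the Aqp4 sums. The fitted log2 difference is far larger than these means and reads give, so it is not read as a size. Dlgap1 was tested there mainly through the Aqp4 nuclei.

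Genes with the most similar pattern were found by Pearson's r of log2(CPM + 1) over the 60 sums of construct and class, among 10534 genes. These sums share constructs, and the glial sums detect fewer genes, so r is descriptive. Closest to Grin3a was Sst (r = 0.91), the gene that defines the class, then Npy (0.77) and Tent5a (0.77). Closest to Grin2c were Fgfr3 (0.93), Gm13322 (0.93) and Slc38a3 (0.92), and closest to Grin2d were Kcnip1 (0.84), Npy (0.83) and Maf (0.83). Gria3 lay closest to C230004F18Rik (0.99), Rian (0.98) and Meg3 (0.98), Grin2a to Slc4a10, Gria3 and Meg3 (0.96 each), and Grin1 to Fnbp1l (0.96), Rian (0.95) and Csmd1 (0.95). For the others the first gene was Ssbp4 for Grin2b (0.92), Cit for Gria1 (0.91), Ntm for Gria2 (0.95) and Adss for Gria4 (0.91).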

How the data were processed

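Full-length cDNA libraries of single sorted nuclei were sequenced; the submitters' processing notes name STAR 2.7.2a and the build mm10. The authors deposited whole-number read counts per gene, not normalized, and how intronic reads were counted is not given in the sources used here. Of 2501 columns, 904 matched the samples by name and 1597 were not used. Of 32285 gene rows, 32158 matched GENCODE M21. Nuclei with at least 1000 genes and 10000 reads were classed by marker CPM; no doublet caller was run, and nuclei in more than 1 class were left out. No 2 nuclei had log counts correlated above 0.793.

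Counts were summed per construct and class (at least 5 nuclei, or 3 for glial, Drd1 and Drd2 classes; at least 4 constructs) and tested with edgeR 4.0.16 in R 4.3.3 (quasi-likelihood F test, TMM scaling, filterByExpr, construct as a block), with Benjamini-Hochberg adjustment over all genes tested and a threshold of 0.05. SE is the log2 fold change divided by the square root of F. Where a gene was near 0 in most sums of a class, the fitted fold change can be far larger than the mean CPM give. DESeq2 1.42.0 and limma 3.58.1 (voom) were alternatives, and the others were RLE scaling, no low-count filter, other minimum numbers of nuclei, at least 2000 genes, doubled class thresholds, no block, vector numbers in place of constructs, and leaving out a pool or a construct. Ratios used 1 added read, exon-union lengths and two-sided sign-flip permutation tests, adjusted over 36 tests. Detection shares were taken after thinning to 30000 reads, which does not level the number of genes detected per nucleus. Tested on simulated data with changes of 3 log2 units, the edgeR step recovered 100% in striatal projection against excitatory nuclei (11452 genes) and 43% in Drd1 against Drd2 nuclei (11836 genes). With changes of 1.5 log2 units it recovered 13.1% and 1.01% in these comparisons. The simulation set a fixed dispersion by hand, gave constructs no differences of their own, and changed only genes above a minimum mean count. These shares hold for those settings, so changes of 3 log2 units could still be missed in the real data. The named list genes are the called gene with the smallest p in each direction, list and comparison. The members and lists were chosen with earlier results of these data known. Intervals cover counting error only, since reads without molecular identifiers are not independent molecules.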

Additional observations from a re-analysis of the deposited data

Results flagged for a closer look

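Among 21 groups of 4 to 10 constructs, 10 had 1 construct far from the others; chance alone flags about 1 group in 20, and where the other constructs lay at 0 any read sets a construct apart. In Pvalb nuclei these were Grin2c at 30.6 CPM in SYFP2-P2A-3XFLAG-H2B with the other constructs at 0, Grin3a at 19.6 CPM in BORG-SYFP2-H2B-BC with the next at 6.86, and Gria3 at a low 149 CPM in 3xsmOPT-SYFP2-H2B-BC with the next at 430. In Aqp4 nuclei, 3xU7snRNAOPT-SYFP2-H2B-BC had Grin1 at 30.2 CPM with the others at 0 and Gria1 at 401 CPM with the next at 187, and SYFP2-H2B-BORG-BC had Gria4 at 57.5 CPM with the others at 0. In Mog nuclei, 3xU7snRNAOPT-SYFP2-H2B-BC had Grin2a at 6.94, Grin2d at 5.95 and Gria2 at 7.94 CPM, and SYFP2-H2B-U7snRNAOPT-3'box-BC had Grin2b at 37.4 CPM, with the others at 0 or, for Grin2d, at most 0.435 CPM.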

How the results depend on the processing

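No paired analysis was possible because the nucleus numbers in the titles only count nuclei within a construct and pair no samples by number; the construct itself was the block of the fits and the pair of the ratio tests. No alternative was added after the data were seen. Subunit genes called moved from 0 to 2 (DESeq2), 2 (limma voom) and 1 (other minimum of nuclei) in striatal projection against excitatory nuclei, and from 3 to 1 without pool S40327 against Sst nuclei. Against Pvalb nuclei the count moved from 1 to 3 (no low-count filter), 3 (DESeq2), 4 (limma voom), 2 (no construct block) and 2 (other minimum). In excitatory against Sst nuclei it moved from 4 to 2 (vector number), 1 (without S40317), 1 (without S40325) and 0 (without S40327), and was 3 to 4 leaving out 1 construct. In excitatory against Pvalb nuclei it moved from 1 to 3 (no filter), 4 (DESeq2), 3 (limma voom), 3 (other minimum) and 0 (at least 2000 genes, doubled thresholds, vector number, without S40325), and was 0 to 1 leaving out 1 construct. It became 2 with DESeq2 and with limma voom in Pvalb against Sst nuclei, and 2 with DESeq2, limma voom or no block in Aqp4 against Mog nuclei. Leaving out 1 construct gave 6 to 7 in Aqp4 and 5 to 6 in Mog against excitatory nuclei. The 13 ratio calls became 0 with doubled thresholds, by vector number and without S40317, S40325 or S40327, and 0 to 13 leaving out 1 construct. With fewer constructs the smallest p that the permutation test allows is higher. The causes were not tested. Some differences that were called in neither fit changed sign. Grouped by vector number, these were Grin1 0.0042, Gria2 0.055, Grin2d to Grin1 -1.40 in striatal projection against excitatory, and Gria1 -0.41, Gria3 -0.074 in striatal projection against Pvalb, and Gria3 -0.017, Grin2b to Grin2a -0.060 in excitatory against Sst, and Gria1 0.20, Gria3 0.13 in Pvalb against Sst, and Grin1 -0.20, Grin2a -0.36, Gria3 0.16 in Drd1 against Drd2. Without pool S40325, these were Grin2b -0.082, Grin2d to Grin1 -0.72, Grin3a to Grin1 0.31 in striatal projection against excitatory, and Gria3 -0.41 in excitatory against Sst. With RLE scaling, these were Grin1 -0.0029 in striatal projection against Sst, and Grin2b -0.018, Gria2 -0.056 in Drd1 against Drd2. With no low-count filter, these were Gria1 0.048 in striatal projection against Sst. With DESeq2, these were Grin1 -0.0025 in striatal projection against Sst, and Grin2b -0.018, Gria2 -0.054 in Drd1 against Drd2. With limma voom, these were Grin1 -0.051 in striatal projection against Sst, and Gria1 -0.22 in striatal projection against Pvalb, and Grin1 -0.27, Grin2b -0.076 in Pvalb against Sst, and Grin2a -0.20 in Drd1 against Drd2. With no construct block, these were Grin1 -0.039 in striatal projection against Sst, and Grin1 -0.091, Grin2b -0.0052 in Pvalb against Sst, and Grin2a -0.025 in Drd1 against Drd2. With other minimum numbers of nuclei, these were Gria1 0.036 in striatal projection against Sst, and Gria3 -0.058 in striatal projection against Pvalb, and Grin1 -0.12, Gria3 0.049 in Pvalb against Sst, and Grin2d to Grin1 -0.19 in striatal projection against excitatory, and Gria3 to Gria2 0.19 in excitatory against Pvalb. Without pool S40327, these were Grin2a 0.020, Gria1 0.46, Gria4 0.070, Gria3 to Gria2 0.37 in striatal projection against Sst, and Gria4 0.31, Gria3 to Gria2 0.45 in excitatory against Sst. Without pool S40317, these were Grin1 -0.33, Grin2b -0.090, Gria3 0.046 in Pvalb against Sst, and Grin2d to Grin1 -0.94, Gria4 to Gria2 0.072 in striatal projection against excitatory, and Gria3 to Gria2 0.013 in striatal projection against Pvalb, and Gria3 to Gria2 0.10 in excitatory against Sst. With class thresholds doubled, these were Gria2 -0.042 in Drd1 against Drd2, and Grin2d to Grin1 -0.013 in striatal projection against excitatory. With at least 2000 genes per nucleus, these were Grin2d to Grin1 -0.12 in striatal projection against excitatory, and Gria3 to Gria2 0.064 in striatal projection against Pvalb. Leaving out 1 construct gave ranges across 0 for Grin1 in striatal projection against Sst -0.15 to 0.23, Gria1 in striatal projection against Sst -0.24 to 0.12, Gria1 in striatal projection against Pvalb -0.10 to 0.36, Gria3 in Pvalb against Sst -0.17 to 0.28, Grin2b in Pvalb against Sst -0.017 to 0.14, Grin1 in Pvalb against Sst -0.12 to 0.40, Grin2a in Drd1 against Drd2 -0.66 to 1.33, Gria2 in Drd1 against Drd2 -0.048 to 0.10, Gria3 in Drd1 against Drd2 -0.42 to 0.11, Gria4 in element after against before in striatal projection -0.92 to 0.28, Grin2d to Grin1 in striatal projection against excitatory -0.49 to 0.45, Gria3 to Gria2 in Pvalb against Sst -0.47 to 0.11, Gria3 to Gria2 in striatal projection against Pvalb -0.39 to 0.16, Gria3 to Gria2 in striatal projection against excitatory -0.32 to 0.052. Counts over all genes that moved by more than 1.5 times were Aqp4 against Mog 171 against 108 (no low-count filter), 880 (DESeq2), 325 (limma voom), Aqp4 against excitatory 2183 against 4571 (DESeq2), 992 (no construct block), 1289 to 1787 (leaving out 1 construct), Drd1 against Drd2 4 against 18 (no low-count filter), 529 (DESeq2), 22 (limma voom), 8 (no construct block), 7 (grouped by vector number), 4 to 8 (leaving out 1 construct), Mog against excitatory 1628 against 778 (no low-count filter), 4869 (DESeq2), 3257 (limma voom), 2640 (grouped by vector number), 1058 (without pool S40325), 373 to 2128 (leaving out 1 construct), Pvalb against Sst 34 against 150 (no low-count filter), 532 (DESeq2), 130 (limma voom), 69 (other minimum of nuclei per sum), 9 (without pool S40317), 14 to 28 (leaving out 1 construct). For other comparisons they were element after against before in Pvalb 0 against 5 (no low-count filter), 77 (DESeq2), 2 (limma voom), 0 to 4 (leaving out 1 construct), element after against before in Sst 0 against 7 (no low-count filter), 313 (DESeq2), 5 (limma voom), element after against before in excitatory 0 against 2 (no low-count filter), 65 (DESeq2), element after against before in striatal projection 0 against 10 (no low-count filter), 208 (DESeq2), 4 (limma voom), 0 to 7 (leaving out 1 construct), excitatory against Pvalb 256 against 530 (no low-count filter), 1309 (DESeq2), 503 (limma voom), 445 (other minimum of nuclei per sum), 81 (without pool S40325), 128 to 210 (leaving out 1 construct), excitatory against Sst 287 against 500 (no low-count filter), 1221 (DESeq2), 489 (limma voom), 189 (no construct block), 129 (grouped by vector number), 116 (without pool S40317), 54 (without pool S40325), 65 (without pool S40327), striatal projection against Pvalb 320 against 619 (no low-count filter), 1615 (DESeq2), 875 (limma voom), 487 (other minimum of nuclei per sum), 181 to 281 (leaving out 1 construct), striatal projection against Sst 500 against 778 (no low-count filter), 1769 (DESeq2), 897 (limma voom), 83 (without pool S40327), striatal projection against excitatory 295 against 548 (no low-count filter), 1303 (DESeq2), 606 (limma voom), 70 (without pool S40317), 57 (without pool S40325). Not run were Aqp4 against Mog (other minimum of nuclei per sum, at least 2000 genes per nucleus, without pool S40327), Aqp4 against excitatory (other minimum of nuclei per sum, at least 2000 genes per nucleus, without pool S40317, without pool S40327), Drd1 against Drd2 (other minimum of nuclei per sum, without pool S40325), Mog against excitatory (other minimum of nuclei per sum, at least 2000 genes per nucleus, without pool S40317, without pool S40327), Pvalb against Sst (without pool S40325, without pool S40327), element after against before in Pvalb (no construct block, other minimum of nuclei per sum, grouped by vector number, without pool S40317, without pool S40325, without pool S40327), element after against before in Sst (no construct block, other minimum of nuclei per sum, grouped by vector number, without pool S40327), element after against before in excitatory (no construct block, other minimum of nuclei per sum, grouped by vector number, without pool S40317, without pool S40327), element after against before in striatal projection (no construct block, other minimum of nuclei per sum, grouped by vector number, without pool S40325, without pool S40327), excitatory against Pvalb (without pool S40317, without pool S40327), striatal projection against Pvalb (without pool S40325, without pool S40327), striatal projection against Sst (without pool S40325), striatal projection against excitatory (without pool S40327). Grin2c, Grin2d and Grin3a had few reads in the classes other than those where they were high, so smaller differences in them were not detectable at this depth.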
